A study of Rattus norvegicus with 12 samples.

Results

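The enzymes of galactose metabolism, known as the Leloir pathway, were followed in the cerebral cortex of aged and young rats. The members were Galm, Galk1, Galk2, Galt, Ugp2 and Pgm1, and every probe set whose symbol in the array annotation is one of these 6 was taken. This gave 7 probe sets of 5 genes, out of 31099 probe sets and 14218 named genes on the array. Galm and Pgm1 have 2 probe sets each, while Galk2, Galt and Ugp2 have 1 each. No probe set of the annotation used here carries the symbol Galk1 (the galactokinase), so it was not analysed here. The set was assembled around Galm because Galm differed with age on these same arrays. Its age values are therefore given as a description without a test, whereas the other genes were chosen as enzymes of the same pathway and were tested.

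The Leloir pathway turns galactose into a form that can enter glycolysis or glycogen, and it also supplies UDP-galactose, the donor from which galactose is added to glycolipids and glycoproteins. Galm, galactose mutarotase, converts the beta form of galactose into the alpha form, which galactokinase then phosphorylates. Galt exchanges the galactose phosphate for glucose phosphate on UDP-glucose, Ugp2 makes the UDP-glucose, and Pgm1 shifts the phosphate of glucose so that it can be used in glycolysis. In brain, galactose is a building block of the galactolipids of myelin and is released again when these lipids are degraded in lysosomes.

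RNA came from 6 aged and 6 young male Fischer 344 rats, 21 to 23 and 3 to 5 months old by the sample labels (21 and 3 months by the methods), with 1 Affymetrix RAE230 2.0 array per rat. All 12 rats carried an implanted wireless recorder and had been trained in a water maze before the cortex was taken, so both age groups share this handling. The paper reports worse maze performance and less inactive period deep sleep in its aged rats. These cannot be told apart from age here. Parietal cortex is given as the tissue in the sample titles and the methods, but frontal cortex in the tissue entry. The deposited values are linear signal intensities. Differences are given on the log2 scale, aged minus young, with the standard error (SE) of limma, which fits all genes and shares information on their variance. Of 14218 genes with a probe set of 1 symbol, 13253 exceeded a log2 signal of 4.3 (a signal of 19.7) on at least 3 arrays and were tested. The paper chose 4.3 for gcRMA signals, and it was carried over to the deposited values. Of all probe sets, 84.3 to 87.1% exceeded it on the aged and 83.3 to 85.9% on the young arrays. Passing it therefore does not show that a gene is expressed. For genes with several probe sets the brightest on average was used, and all 7 probe sets of the members exceeded the cutoff on all 12 arrays.

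Array medians lay at signals of 167.9 to 194.3 in aged rats and 161.6 to 171.9 in young rats, and the mean correlation of an array with the others lay between 0.946 and 0.956, lowest for aged rat 2. Of 8 marker genes of cortical excitatory neurons listed, 7 were tested, with a summed signal of 15752 to 17217 in aged and 16411 to 19012 in young rats. That sum consists mostly of Mef2c, with a signal of 12360 ± 997 in aged and 13146 ± 1060 in young rats (SD, n = 6 each). The neuronal marker Snap25 had a signal of 18139 ± 1897 in aged and 17912 ± 3280 in young rats (SD, n = 6 each). It was 1 of 2 neuronal markers with a higher mean in aged rats, while 8 of the 10 tested were lower (median log2 difference -0.085). Choroid plexus markers, of which 5 of 6 were tested, summed to a signal of 284 to 824 in aged and 196 to 1615 in young rats. The tissue is a mixture of cells, so fewer cells of a type and less RNA per cell cannot be told apart in any value below. The codes of the samples form a series of lower numbers (4 aged and 3 young rats) and one of higher numbers (2 aged and 3 young rats), whose meaning the labels do not give.

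Galm signal was higher in every aged rat than in every young rat, at both of its probe sets. On probe set 1385072_at the aged rats had a lowest signal of 568, a median of 613 and a highest of 623, against 455, 468 and 499 in young rats. The groups were thus separated by a gap, between aged rat 1 at 568 and young rat 2 at 499, and the spread within each age was small. Mean signal was 603 ± 23.0 in aged and 475 ± 17.8 in young rats (SD, n = 6 each), a log2 difference of 0.35 (SE 0.047), or 1.27-fold. Such a complete separation, with aged above young, was found for 0.536% of the 13253 genes tested. Because Galm was chosen on this comparison, nothing is read from that share.

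The second Galm probe set, 1379250_at, gave a lower signal and the same difference. Its lowest, median and highest signals were 211, 235 and 264 in aged rats, against 173, 190.1 and 205 in young rats. Again the groups did not overlap, but here the gap was narrow, between aged rat 2 at 211 and young rat 1 at 205. Mean signal was 239 ± 20.6 in aged and 188 ± 12.2 in young rats (SD, n = 6 each), a log2 difference of 0.35 (SE 0.073, from the fit over 28193 probe sets). Among those probe sets, 0.429% were separated in this way. Both probe sets are read from the same RNA of the same rats, and the second is not an independent repeat of the comparison.

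**Figure D1:**
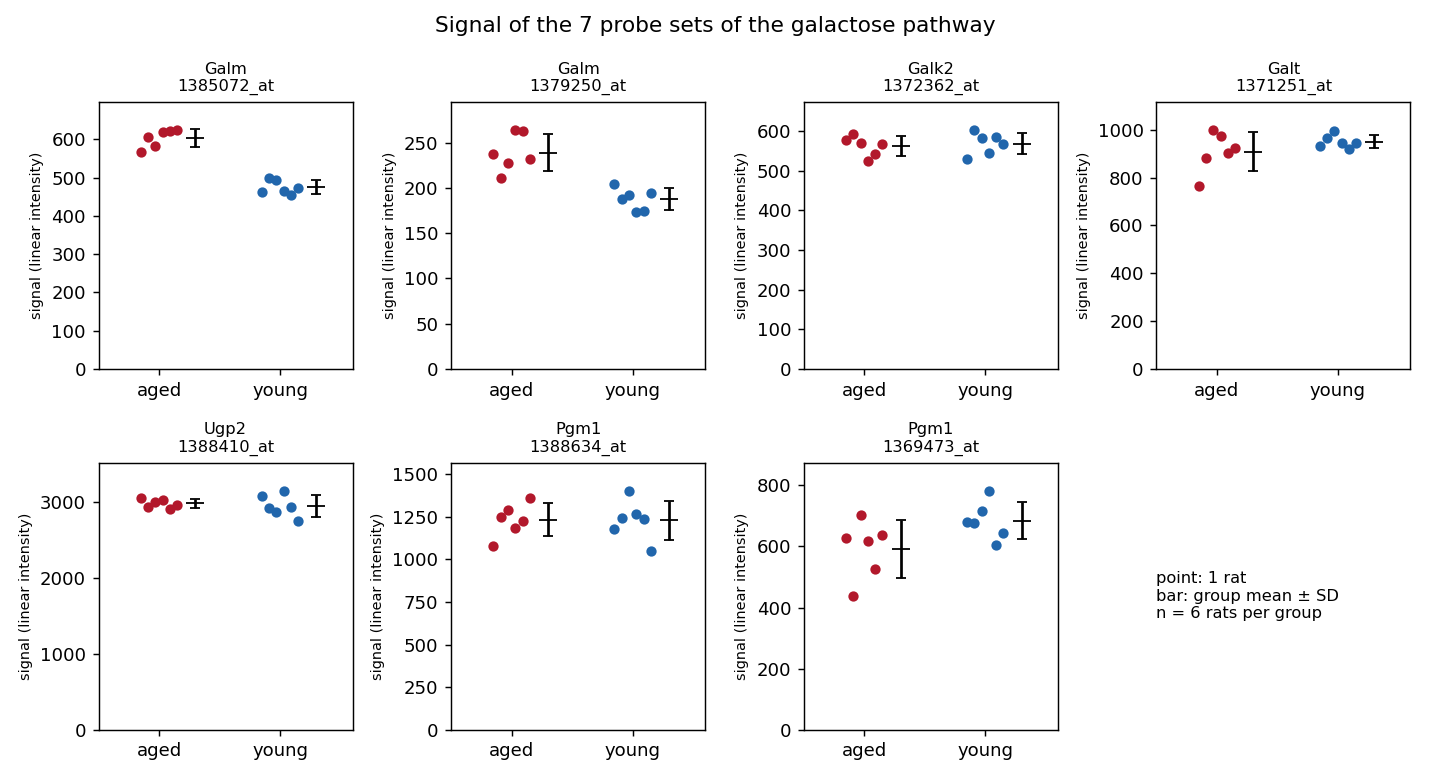
Signal (y axis, linear intensity from 0) of the 7 probe sets of the galactose pathway in aged and young rats (x axis), with 1 point per rat and a bar at the group mean ± SD (n = 6 each). The groups are apart at both Galm probe sets, with 568 to 623 in aged against 455 to 499 in young rats at 1385072_at, and overlap at the other 5.

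Although both Galm probe sets separated the ages, they did not rank the rats of 1 age alike. Aged rat 6 had the highest signal at 1385072_at (623) but 232 at 1379250_at, below the median of the aged rats. Within the aged rats the log2 signals of the probe sets had a Pearson r of 0.36 (exact permutation p = 0.456, adjusted p = 0.599, n = 6) and a Spearman rho of 0.26 (exact p = 0.658, adjusted p = 0.718). Within the young rats r was 0.31 (exact p = 0.549, adjusted p = 0.599, n = 6) and rho 0.086 (exact p = 0.919, adjusted p = 0.919). Without the 2 rats farthest from the group median at 1385072_at, r was 0.72 in aged and 0.52 in young rats. The tests are two-sided and the adjustment covers 12 relations. The code series hold too few rats of 1 age for a value within each.

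**Figure D2:**
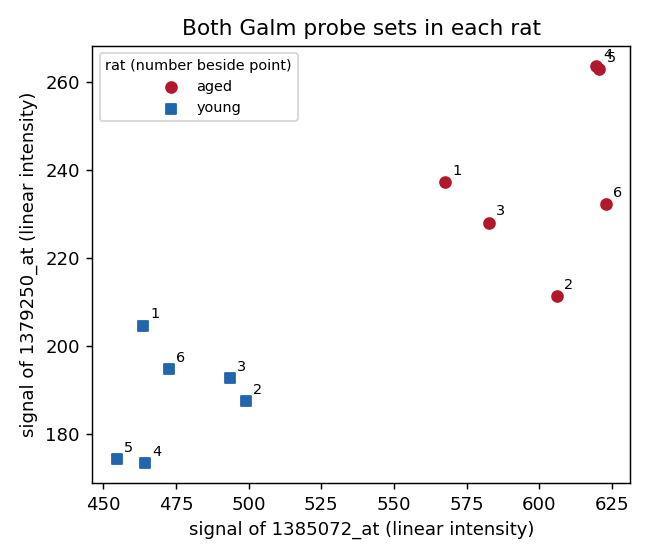
Signal of Galm probe set 1379250_at (y axis, linear intensity) against that of 1385072_at (x axis, linear intensity) in each rat, numbered as in the labels, aged as circles and young as squares. The ages are separated on both axes, by 568 against 499 on x and by 211 against 205 on y, and within an age the points follow no clear line.

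Galm had a modest fold difference and a small spread between rats. A larger log2 rise was measured for 1319 of the 13253 genes (9.95%). The within-age SD of Galm on the log2 scale was 0.055, against a median of 0.20 over all genes, and 0.589% of genes had a smaller one. Because Galm was chosen on this comparison, these shares and the values below are descriptions and nothing is read from them. Within the lower code series the log2 difference was 0.29 at 1385072_at and 0.27 at 1379250_at, and within the higher series it was 0.42 and 0.45. When each rat was left out in turn, the difference stayed between 0.33 and 0.36 at the first probe set and between 0.32 and 0.38 at the second.

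Markers of several glial and vascular cell types also had higher means in the aged rats, though none passed the test over all genes. Of all genes tested, 56.9% had a higher mean in aged rats, with a median log2 difference of 0.024. All 9 oligodendrocyte markers tested had higher means in aged rats (median log2 difference 0.35), with summed signals of 34281 to 55573 in aged and 32742 to 48127 in young rats, and Mbp, a protein of myelin, had 17067 ± 1481 in aged and 16550 ± 1691 in young rats (SD, n = 6 each). All 8 endothelial markers did too (median 0.22), with sums of 4419 to 6062 in aged and 3647 to 4646 in young rats. Among microglial markers 10 of 11 were higher (median 0.22), with sums of 5786 to 10957 in aged and 5131 to 6781 in young rats, and Aif1 had 462 ± 125 in aged and 409 ± 56.8 in young rats (SD, n = 6 each). For astrocytes, 7 of 9 were higher (median 0.041), with sums of 56591 to 70227 in aged and 55036 to 68006 in young rats, while Gfap itself had a signal of 5876 ± 1430 in aged and 4505 ± 1425 in young rats (SD, n = 6 each). Among neuronal markers 8 of 10 were lower (median -0.085), with sums of 53724 to 58503 in aged and 54143 to 68032 in young rats. All 4 blood markers tested were higher (median 1.05), with sums of 6233 to 9764 in aged and 5001 to 9338 in young rats. That sum consists mostly of Hbb, a hemoglobin chain, with a signal of 7112 ± 1340 in aged and 6119 ± 1647 in young rats. The 2 myeloid genes of the blood list had every aged rat above every young rat, as did 0.536% of the 13253 genes tested. S100a8 had signals of 25.3 to 75.6 in aged and 2.57 to 18.8 in young rats, where all lay below the cutoff. It passed the filter only through the aged rats, so nothing is read from its higher signal and no p-value is given for it. S100a9 averaged 148 ± 59.1 in aged and 48.1 ± 15.5 in young rats (SD, n = 6 each, adjusted p = 0.105 from limma). The summed levels of each list overlapped between the ages, and no tested marker was at 0. Their part in the Galm difference was not tested.

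No other pathway enzyme passed the test for a difference with age. Of the 4 genes tested (Galk2, Galt, Ugp2 and Pgm1), 0 had an adjusted p under 0.05 with limma, where 0.0528% of all genes did. At an unadjusted p under 0.05 there were also 0, with limma and with the methods' t-test alike, where limma found 9.11% of all genes, so that 0 of 4 sets the members apart from other genes in no way. A miss of the threshold does not show equal levels, and the 95% interval of each difference is therefore given.

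Galk2, a kinase of the galactokinase family that in human acts mainly on N-acetylgalactosamine, had nearly the same signal at both ages. Its lowest, median and highest signals were 525, 568 and 593 in aged rats, against 529, 575 and 601 in young rats. The ranges overlapped almost entirely. The mean was 563 ± 24.6 in aged and 568 ± 27.5 in young rats (SD, n = 6 each), a log2 difference of -0.014 (SE 0.051, 95% interval -0.13 to 0.098, adjusted p = 0.966 from limma).

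Galt, the uridylyltransferase whose loss causes classic galactosemia in human, had a wider range of signals in aged than in young rats. Signals were 766 at the lowest, 913 at the median and 997 at the highest in aged rats, against 919, 944 and 993 in young rats. Aged rats 1, 2 and 5 lay below every young rat and aged rat 3 lay above them all. The coefficient of variation was 9.03% in aged and 2.80% in young rats. It was 5.24% in aged rats without aged rat 1, and the difference in spread was not tested. Mean signal was 907 ± 81.9 in aged and 949 ± 26.6 in young rats (SD, n = 6 each), a log2 difference of -0.070 (SE 0.065, 95% interval -0.21 to 0.071, adjusted p = 0.790 from limma). Without aged rat 1 the log2 difference was -0.022.

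Ugp2, the enzyme that makes UDP-glucose, varied little between rats. The lowest, median and highest signals were 2905, 2982 and 3052 in aged rats, against 2746, 2932 and 3142 in young rats. All aged rats lay inside the range of the young. The mean was 2981 ± 56.2 in aged and 2949 ± 143 in young rats (SD, n = 6 each), a log2 difference of 0.016 (SE 0.046, 95% interval -0.085 to 0.12, adjusted p = 0.951 from limma). Its within-age SD of 0.053 on the log2 scale was lower than that of all but 0.423% of genes.

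Pgm1, the phosphoglucomutase that links the pathway to glycolysis and glycogen, had different values at its 2 probe sets. At 1388634_at, the brighter, signals were 1076, 1238 and 1363 (lowest, median, highest) in aged rats, against 1051, 1241 and 1401 in young rats. The ages overlapped fully there, with a log2 difference of 0.0037 (SE 0.077, 95% interval -0.16 to 0.17, adjusted p = 0.994 from limma). At 1369473_at they were 438, 623 and 701 in aged rats, against 605, 678 and 781 in young rats. Here 5 of 6 aged rats lay below the young median, and aged rats 2 and 5 lay below every young rat. The mean was 592 ± 93.9 in aged and 684 ± 60.7 in young rats (SD, n = 6 each), a log2 difference of -0.22 (SE 0.11, 95% interval -0.47 to 0.026, adjusted p = 0.680 with limma over 28193 probe sets, of which 0.0248% passed). Without aged rat 2, the lowest, it was -0.14.

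The difference between the Pgm1 probe sets was compared between the ages directly, a test chosen after the values were seen. The log2 signal of 1369473_at minus that of 1388634_at averaged -1.07 ± 0.27 in aged and -0.85 ± 0.14 in young rats (SD, n = 6 each). The ages differed by -0.22, which did not pass (exact permutation test over 924 splits, two-sided, p = 0.0996). It was -0.14 (exact p = 0.182) without aged rat 2 and -0.28 (exact p = 0.0346) without aged rat 1. Within the lower series it was -0.15 and within the higher -0.34. Within the aged rats the 2 probe sets had a Pearson r of 0.021 (exact permutation p = 0.976, adjusted p = 0.976, n = 6) and a Spearman rho of 0.37 (exact p = 0.497, adjusted p = 0.663). Within the young rats r was 0.45 (exact p = 0.35, adjusted p = 0.599, n = 6) and rho 0.66 (exact p = 0.175, adjusted p = 0.663). Without the 2 rats farthest from the group median at 1388634_at, r was 0.14 in aged and 0.34 in young rats.

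**Figure D3:**
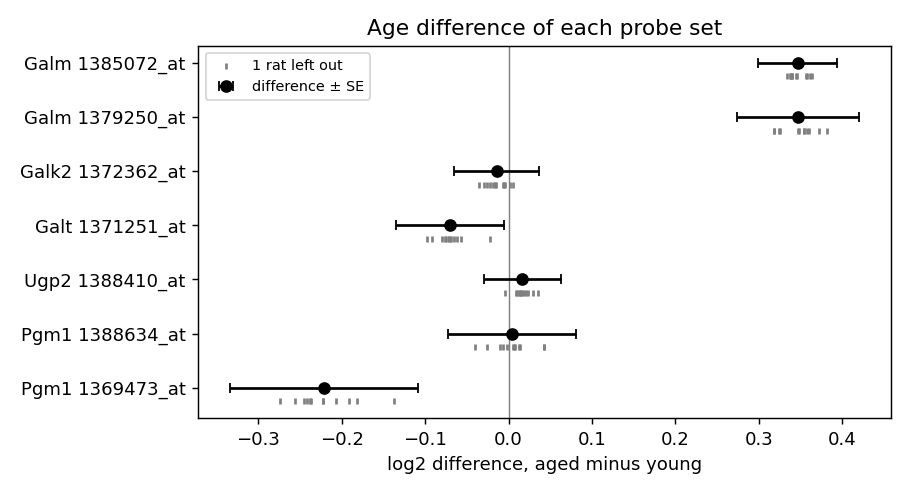
The x axis gives the log2 difference, aged minus young, for the 7 probe sets on the y axis, as a point with its standard error, and below it a tick for each value with 1 of the 12 rats left out. The Galm values lie near 0.35, those of Galk2, Galt, Ugp2 and Pgm1 1388634_at between -0.070 and 0.016, and Pgm1 1369473_at lies at -0.22.

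Among rats of the same age, Galm did not vary with another member past the test. Over 8 relations (4 genes within each age), Pearson r ranged from -0.63 to 0.90 and Spearman rho from -0.60 to 0.94, and 0 had an adjusted p under 0.05 with the exact permutation test, while 1 had an unadjusted p under 0.05. That one was Galm with Galt in young rats, with r = 0.90 (exact p = 0.0153, adjusted p = 0.183, n = 6) and rho = 0.94 (exact p = 0.0167, adjusted p = 0.200). Without the 2 rats farthest from the median of Galm, r was 0.92. In aged rats the same relation had r = 0.51 (exact p = 0.306, adjusted p = 0.599, n = 6) and rho = 0.26 (exact p = 0.658, adjusted p = 0.718). Without the 2 farthest rats there, r was 0.58.

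Genes were also ranked by how their rat to rat variation followed that of Galm. The likeness was the Pearson r of deviations from the mean of each age group over the 12 arrays, given as a description across 13252 genes, all read from the same arrays. The genes named as highest and lowest are the ends of that ranking, picked for their r. An r above 0.8 was found for 13 genes and one below -0.8 for 3. How many unrelated genes would reach such an r was not computed, so nothing is read from these counts. The second Galm probe set itself had r = 0.33 with the first. Highest were Pcyt2, an enzyme of phosphatidylethanolamine synthesis (r = 0.92), Ercc2, a helicase of DNA repair and transcription (r = 0.90), and Lrrc19 (r = 0.87). Lrrc19 is above the cutoff on 3 arrays only, with a mean signal of 14.98 in aged and 2.73 in young rats, both below it, so its pattern is that of a signal near the bottom of the scale. Lowest were Nkrf (r = -0.83), a repressor of NF-kappa-B targets, Cdyl (r = -0.82), a chromodomain protein, and Yipf2 (r = -0.80), a protein of Golgi membranes. These values belong to probe set 1385072_at. With the second Galm probe set Pcyt2 had r = 0.14, Ercc2 0.53, Lrrc19 0.021, Nkrf -0.51, Cdyl -0.23 and Yipf2 -0.15. Of the pathway members, Galt had r = 0.53 and Pgm1 r = 0.45 with Galm, Galk2 had 0.043 and Ugp2 -0.41.

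For the wider network of sugar metabolism around these enzymes, 81 genes in 5 lists were examined. Of these, 63 were tested, 39 with a higher and 24 with a lower mean in aged rats (56.9% of all genes were higher), and 0 had an adjusted p under 0.05 over all genes with limma. At an unadjusted p under 0.05, 3 were higher and 1 lower, with limma and with the methods' t-test alike, which is 6.35% of them against 9.11% of all genes. The median log2 difference over the 63 genes was 0.074, against 0.024 over all genes tested.

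Enzymes of hexose phosphates and UDP-sugars, the nearest neighbours of the members, had a median log2 difference of -0.042, with 5 of 12 higher, 7 lower and none past the test. Uap1l1, a relative of the enzyme that makes UDP-N-acetylglucosamine, had a signal of 276 ± 40.2 in aged and 210 ± 22.1 in young rats (SD, n = 6 each), a log2 difference of 0.39 (SE 0.11, adjusted p = 0.294 from limma). Pgm2 and Pgm2l1, which belong to the phosphoglucomutase family like Pgm1, had log2 differences of -0.18 (SE 0.11) and -0.15 (SE 0.083). Gfpt2, which opens the hexosamine pathway, had -0.11 (SE 0.087).

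Of 7 genes listed for galactose release in lysosome and gut, Galns and Lct had no probe set of 1 symbol. The 5 tested all had higher means in aged rats, as did 56.9% of all genes. Their median log2 difference was 0.14, and none passed. The smallest difference was 0.011 (SE 0.070), for Psap. Galc, the lysosomal enzyme that removes galactose from myelin galactolipids, had a signal of 484 ± 48.0 in aged and 423 ± 25.3 in young rats (SD, n = 6 each), a log2 difference of 0.19 (SE 0.073, adjusted p = 0.477 from limma). Gla, alpha-galactosidase, had 0.14 (SE 0.080) and Glb1, beta-galactosidase, 0.074 (SE 0.072). Glb1l, a relative of Glb1, had 0.67 (SE 0.32) at a low signal of 70.6 ± 20.4 in aged and 47.1 ± 20.2 in young rats. The median of the list was 0.065 with median centring and 0.074 with the mean of the probe sets of a gene, and between 0.10 and 0.18 with each rat left out.

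The list for galactose transfer and UDP-galactose transport was split, with 11 of 19 genes higher, 8 lower and none past the test (median log2 difference 0.12). That median was 0.035 without aged rat 1, 0.046 with median centring, 0.051 with quantile normalization and -0.0076 in the lower code series. Ggta1, an alpha-galactosyltransferase, had a signal of 205 ± 43.0 in aged and 164 ± 12.3 in young rats (SD, n = 6 each), a log2 difference of 0.30 (SE 0.12, adjusted p = 0.498 from limma). The collagen galactosyltransferases Colgalt1 and Colgalt2 had log2 differences of 0.17 (SE 0.11) and 0.20 (SE 0.10). B4galt2, which adds galactose to glycoproteins, had -0.19 (SE 0.10). Ugt8, the enzyme that makes the galactolipid of myelin, had a signal of 1091 ± 449 in aged and 959 ± 220 in young rats, and was named for that role after its values were seen.

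Among glycogen genes 8 of 14 had higher and 6 lower means in aged rats, none past the test. The median log2 difference was 0.0096, and its sign varied with the processing, from -0.061 with median centring to 0.082 in the higher code series. Pygb, the brain glycogen phosphorylase, had a signal of 3756 ± 147 in aged and 3481 ± 272 in young rats (SD, n = 6 each), a log2 difference of 0.11 (SE 0.061, adjusted p = 0.602 from limma). Gbe1, the branching enzyme, had -0.11 (SE 0.066). Stbd1, which binds glycogen, had 0.20 (SE 0.11), and Phkg1, a catalytic subunit of phosphorylase kinase, had 0.16 (SE 0.10).

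Of the genes of hexose transport and the polyol pathway, 10 of 13 had higher and 3 lower means in aged rats, with a median log2 difference of 0.17 and none past the test. The median was 0.059 in the lower code series, 0.10 with median centring, 0.11 with quantile normalization and 0.11 without young rat 4. Slc2a3, the glucose transporter of neurons, was the single gene of the 5 lists with a lower mean at an unadjusted p under 0.05, with a signal of 1508 ± 105 in aged and 1682 ± 86.0 in young rats (SD, n = 6 each), a log2 difference of -0.16 (SE 0.060, adjusted p = 0.471 from limma). Slc2a5, a fructose transporter known from microglia, had 0.33 (SE 0.15). Sord, which oxidises sorbitol to fructose, had 0.18 (SE 0.088), and Akr1b10, an aldo-keto reductase, had 0.23 (SE 0.15).

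**Figure D4:**
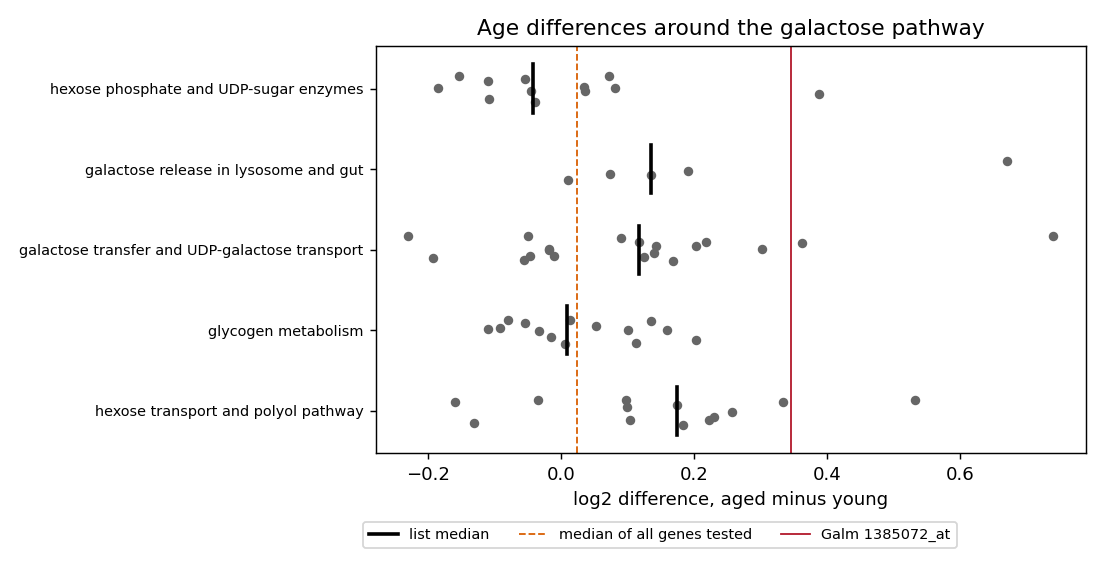
The x axis gives the log2 difference, aged minus young, and the y axis the 5 lists of sugar metabolism. Points are the genes tested and black lines the list medians. An orange dashed line at 0.024 is the median of all genes tested and the red line at 0.35 is Galm. The list medians lie between -0.042 and 0.17.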

How the data were processed

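The authors hybridised RNA of 12 rats to 12 arrays and deposited 1 linear signal intensity per probe set and array, with a mean of 500.0 on each array after 2% of values were trimmed at each end. The methods give the deposited signal as gcRMA and name a scaling target for quality control, while MAS5, GCRMA and R 2.7.1 stand in the submitters' processing notes. The values are linear with an equal trimmed mean on all arrays, whereas gcRMA gives log2 values, so the algorithm behind them is uncertain. The design assumed log2 values, so log2 was taken, without further normalization. Symbols were updated by gene ID (20764 probe sets found). The gene test used the 20832 probe sets with exactly 1 symbol. Aged and young rats were compared with limma 3.58.1 in R 4.3.3 (lmFit, eBayes), with two-sided p-values adjusted over all genes by Benjamini-Hochberg. Correlations have exact permutation p-values (Python 3.11.15, scipy 1.17.1). Figures were drawn with matplotlib 3.10.9.

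The members and lists were chosen with earlier results of these data known. Named are the members, the 3 genes most and least like Galm, and the 4 genes of smallest p in each list, besides marker genes. Alternatives were quantile normalization, median centring, other filters, the mean of probe sets, every probe set on its own, an intensity trend with robust variances, the methods' t-test, blocks by subject number or code series, either series by itself, leaving out each rat, and, chosen after seeing the data, aged rats 2 and 6 left out together and, for the spread of Galt, aged rat 1. On simulated data with 13253 genes, the test of aged against young recovered 27 of 100 genes changed by 0.35 and 72 of 100 changed by 1 on the log2 scale, with 3 false calls. The simulated noise had the SD of each gene and was independent between genes, and the changed genes were drawn at random. The tested members had within-age SDs from 0.053 (Ugp2) to 0.13 (Pgm1), against a median of 0.20 over all genes. The recovered shares are therefore not those of the members. The number of arrays limits the precision.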

Additional observations from a re-analysis of the deposited data

Results flagged for a closer look

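In 74 groups of 6 rats (the member probe sets and named genes at each age), 4 held 1 rat far from the others, where chance alone gives about 1 in 20 groups. Pgm2l1 had a signal of 5229 in aged rat 5, against 4347 in the next aged rat. Colgalt2 had 110.2 in aged rat 2, against 138.8 in the next. Phkg1 had 139.5 in aged rat 3, against 114.7 in the next. Gfap, a marker of astrocytes, had 8667 in aged rat 6, against 5746 in the next. None of the 7 member probe sets was among them.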

How the results depend on the processing

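Of 352 values recomputed for 17 results, 331 kept their direction and their side of the threshold or moved by less than the spread between rats. No age difference of Galk2, Galt, Ugp2 or Pgm1 reached an adjusted p under 0.05 in any of 123 such values (lowest 0.544). With median centring, the median of all genes was -0.047 instead of 0.024, and log2 differences were 0.28 for Galm, -0.054 for Ugp2, -0.067 for Pgm1 (1388634_at), -0.11 for the median of hexose phosphate and UDP-sugar enzymes and -0.061 for that of glycogen genes. Pgm1 was -0.11 with the mean of its probe sets, which takes in 1369473_at, -0.086 in the lower code series and -0.040 without aged rats 2 and 6. In the lower series the median of the list for galactose transfer and UDP-galactose transport was -0.0076. In the higher series Galm was 0.42, Ugp2 -0.0025 and the glycogen median 0.082. The cause was not tested. Among all genes, 4 passed with quantile normalization, 2 with median centring, 18 with an intensity trend and robust variances, 1 without aged rats 2 and 6, 0 in either code series alone and 0 to 8 with each rat left out (0 without young rat 1 or aged rat 3), against 7. With each rat left out, values ranged from -0.035 to 0.0054 for Galk2, -0.0039 to 0.035 for Ugp2, -0.041 to 0.042 for Pgm1 and -0.28 to -0.14 for the difference between the Pgm1 probe sets. The subject numbers do not pair the rats by the labels, and 4 of 6 same-numbered pairs had deviations correlated over 0.1 (-0.040 to 0.16), with 5 of 6 aged rats closest to the young rat of the same number. Each number holds 1 aged and 1 young rat, so the subject number as a block moves no difference (-0.22 for Pgm1 1369473_at) but only its error. With it Pgm1 1369473_at had an adjusted p of 0.544, 2 genes passed among all tested instead of 7, and no call among the members or lists changed.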
